A study of Mus musculus with 24 samples.

Results

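m6A (N6-methyladenosine) is a methyl mark that the METTL3 and METTL14 proteins place on adenosines of RNA as it is made. METTL3 holds the catalytic site and METTL14 holds the RNA, and the mark is best known for hastening the decay of the transcripts that carry it. In embryonic stem (ES) cells, many transcripts of pluripotency and lineage regulators carry m6A, and loss of the writer disturbs the exit from pluripotency. The question here was which autosomal genes and functions moved alike, and which moved in opposite directions, in an ES cell line that had lost *Mettl14* and another that had lost *Mettl3*, each measured against the line it came from. Of the 24 libraries of the series, the 8 RNA-seq libraries of the 4 lines entered the comparison, 2 a line, and the MeRIP-seq libraries were read beside them. 256 autosomal genes rose in both knockouts, 342 fell in both, 119 rose in *Mettl14* KO and fell in *Mettl3* KO, and 36 fell in *Mettl14* KO and rose in *Mettl3* KO, of 16317 tested.

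WT26 was a wild type mouse ES line of mixed 129/Sv x C57Bl6 background, and *Mettl14* KO was its clone A10, made with CRISPR/Cas9 and carrying a homozygous frameshift deletion with a premature stop codon in *Mettl14*. Guides against *Mettl3* were given to the same cells, and the catalytic domain of *Mettl3* was left intact in A10. RBC was an ES line, also of 129/Sv x C57Bl6 background, with BirA-V5 and Cre-ERT2 at Rosa26. *Mettl3* KO was the clone 2c4d, which has the same Rosa26 alleles and a *Mettl3* knockout. Both the control and the knockout of that pair thus carry the transgenes. All lines were grown without feeders on gelatin with serum replacement and LIF, and RNA came from nuclei by the study's methods while the labels give total RNA. Each knockout was a single clone of its own parental line, so the gene removed, the clone and the parental line cannot be told apart in any comparison below. Nothing in the labels says that the RNA-seq replicates were separate cultures, and the p-values then measure only the spread between these libraries.

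Counts summed to 11321459 to 13743181 per RNA-seq library. The replicates of RBC stood further apart than those of the other lines, as the chi-square over its degrees of freedom was 39.8 where the other lines had 2.95 to 6.31 and the mitochondrial shares were 4.22 and 2.75% in replicates 1 and 2. Without RBC replicate 1 the counts of genes changed alike and oppositely were 544 and 137, and without RBC replicate 2 they were 528 and 148. *Mettl14* had 401 and 358 normalized counts in WT26 against 296 and 316 in *Mettl14* KO, and 436 and 412 in RBC against 389.6 and 402 in *Mettl3* KO, and *Mettl3* had 714 and 720.4 normalized counts in WT26 and 1021 and 886 in its knockout, beside 928 and 979 in RBC and 880.0 and 821 in the *Mettl3* KO libraries, so both transcripts were present in all lines. A frameshift does not remove the reads of the rest of a gene, and whole-gene counts therefore check neither knockout. The ES cell markers were detected in every library, with a summed level that was lower in both knockouts, at 20856 to 21224 normalized counts in *Mettl14* KO below 28907 to 29404 in WT26, and at 18644 to 18863 in *Mettl3* KO below 26261 to 26517 in RBC. The fibroblast markers *Dcn* and S100a4 and the trophoblast marker Prl3d1 were at 0 counts in all 8 libraries, but other members of these lists were not. 4 of 10 fibroblast markers were tested. The sums over all 10 were 121 to 122 normalized counts in WT26, 54.6 to 72.1 in its knockout, 126 to 129 in RBC and 65.2 to 78.6 in *Mettl3* KO. Most of the decline lay in *Thy1*, at 75.1 and 79.4 in WT26, 18.03 and 19.5 in its knockout, and for the other pair at 80.5 and 98.6 (RBC) against 10.4 and 19.1 (*Mettl3* KO), whereas *Col1a2* stood higher in *Mettl3* KO (22.6 and 24.2) than in RBC (6.90 and 2.96). 2 of 8 trophoblast markers were tested, *Tfap2c* and *Eomes*. All 8 summed to 249.6 to 269 in WT26, 341 to 349 in its knockout, 288 to 293 in RBC and 349 to 376 in *Mettl3* KO. The part of such cells in the results was not tested. In bulk RNA, fewer cells of a type and less RNA per cell cannot be told apart.

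A gene was called changed at a Benjamini-Hochberg adjusted p of at most 0.05 by edgeR's quasi-likelihood test and a log2 fold change beyond 1 either way, and "rose" and "fell" are used below of such calls alone. All fold changes are on the log2 scale and given with their standard errors. In *Mettl14* KO 1218 autosomal genes rose (7.46% of those tested) and 1080 fell (6.62%). In *Mettl3* KO 975 rose (5.98%) and 1193 fell (7.31%). The test of the difference itself, that is the change in *Mettl14* KO minus the change in *Mettl3* KO, called 2215 genes (13.6%), 1258 with a higher (7.71%) and 957 with a lower change in *Mettl14* KO (5.87%). The split of these calls moved with the scaling. With libraries scaled by their total counts the median of all genes in *Mettl3* KO against RBC shifted to 0.15 from -0.0050, the rises and falls in *Mettl3* KO became 1355 and 899, and the higher and lower differences became 991 and 1441. The genes that rose and fell in both then numbered 307 and 289, so that the larger of these 2 classes was not the same under the 2 scalings, and the opposite classes numbered 97 and 47.

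The 2 comparisons share no library, so their calls can be set against each other. Of the genes that rose in *Mettl14* KO, 21.02% also rose in *Mettl3* KO and 9.77% fell there. Of the genes that fell in *Mettl14* KO, 31.7% also fell in *Mettl3* KO and 3.33% rose. Seen from the other side, 26.3% of the genes that rose in *Mettl3* KO rose in *Mettl14* KO and 3.69% fell, and of those that fell in *Mettl3* KO 28.7% fell and 9.97% rose in *Mettl14* KO. Each of these shares of like calls lies above the 5.98% to 7.46% of all genes that were called per direction. Opposite calls in one order did so too. The 9.77% that fell in *Mettl3* KO stood beside 7.31% of all genes, and the 9.97% that rose in *Mettl14* KO beside 7.46%. In the reverse order the shares were lower, 3.33% beside 5.98% and 3.69% beside 6.62%. Across genes, which are not independent replicates, the 2 sets of fold changes correlated with a Pearson coefficient of 0.262 and a Spearman coefficient of 0.310, given as a description. Where the adjusted p alone passed in both, which it did for 5198 genes, 3820 had the same sign and 1378 the opposite one. The adjusted p alone passed for 52.2% of genes for the *Mettl14* knockout and for 53.2% for the *Mettl3* knockout, so most of the genes in these counts moved by less than the fold threshold.

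**Figure D1:**
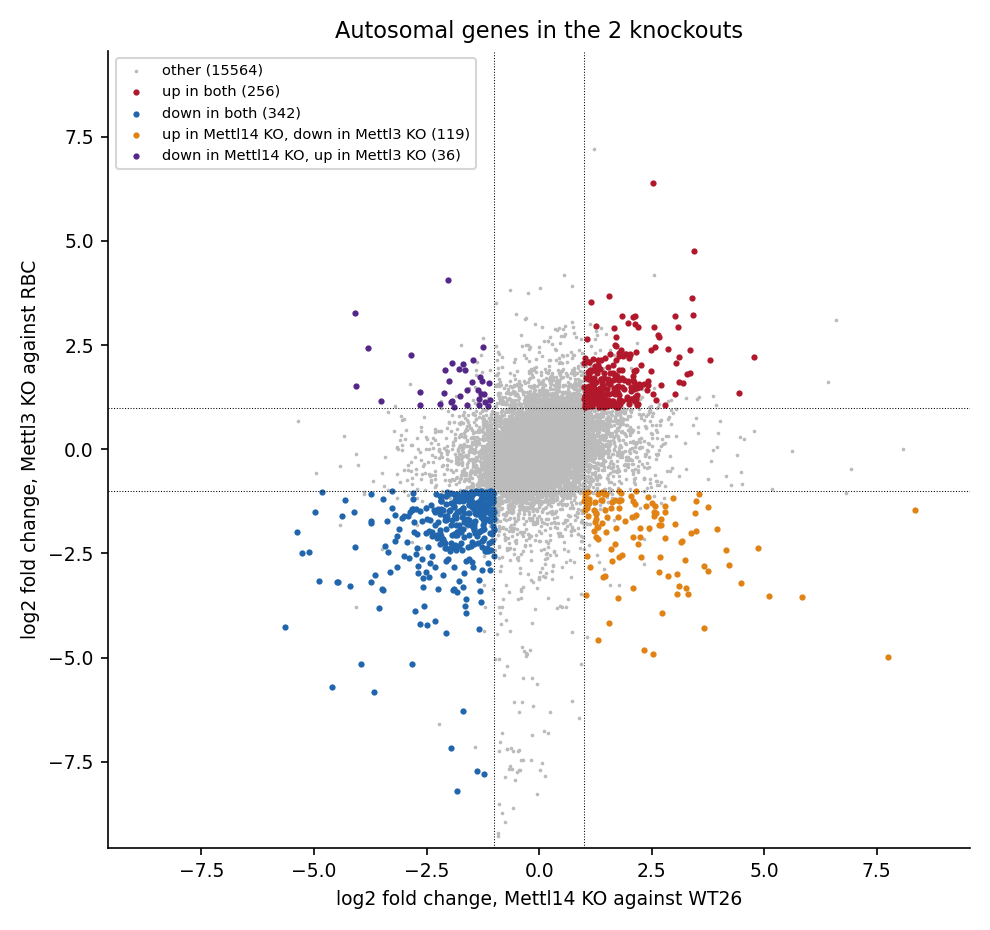
log2 fold change of each autosomal gene tested in *Mettl14* KO against WT26 (horizontal axis) and in *Mettl3* KO against RBC (vertical axis), with genes called in both comparisons coloured by class. The 256 and 342 genes changed alike sit in the upper right and lower left, and the 119 and 36 genes changed oppositely in the other corners.

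Being called in only one knockout did not mean that the knockouts differed. For 1506 genes called in 1 knockout the difference itself was not called, while 1454 of the 2215 difference calls were genes changed in 1 knockout, 536 were called in neither, and 70 were changed alike by unequal amounts. Of the 256 genes that rose in both, the difference passed for 14, and the 95% interval of the difference lay within 1 log2 unit of 0 for 64. Of the 342 that fell in both, it passed for 56 and the interval lay within 1 unit for 107. For the remaining genes of these classes the interval reached past 1 unit, and they cannot be said to have changed equally.

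Among the genes that rose in both knockouts were inhibitors of *Nodal*, a TGF-beta family ligand that patterns the early embryo and acts in ES cells. *Lefty1* (ENSMUSG00000038793, chr1:180935022-180938400, plus strand in GRCm38) encodes a secreted antagonist of *Nodal*. It had 29.8 and 22.5 normalized counts in the WT26 libraries but 218 and 231 in those of *Mettl14* KO, and 125 and 151 in RBC but 1029.6 and 1106 in those of *Mettl3* KO. The groups did not overlap, and the level in each knockout was several times that of its parent even though RBC started above WT26. The fold change was 3.08 ± 0.16 in *Mettl14* KO (adjusted p = 3.09e-11) and 2.94 ± 0.10 in *Mettl3* KO (adjusted p = 1.22e-13), with a 95% interval of the difference from -0.29 to 0.57. Its neighbour *Lefty2*, the second *Nodal* antagonist, had 42.5 and 42.9 normalized counts in WT26 against 198 and 208 in *Mettl14* KO, and 218 and 189 in RBC against 547 and 598 in *Mettl3* KO, and rose by 2.25 ± 0.14 and 1.49 ± 0.094.

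Over the 31 genes tested of the *Nodal*, Activin and BMP list, 3 rose and 3 fell in *Mettl14* KO, 5 rose and 5 fell in *Mettl3* KO, and these included 3 up in both and 2 down in both, with median fold changes of 0.19 and 0.16 against -0.0061 and -0.0050 for all genes. With total-count scaling 3 rather than 5 fell in *Mettl3* KO. Of all genes tested, 7.46% rose and 6.62% fell in *Mettl14* KO, shares near those of the list. In *Mettl3* KO 5.98% rose and 7.31% fell. In both knockouts 1.57% rose and 2.10% fell, and the difference was higher for 7.71% and lower for 5.87%. The same shares of all genes apply to the lists below. The *Nodal*, Activin and BMP list did not move as a block. *Id1*, a target of BMP signalling that restrains differentiation, had 173 and 213 normalized counts in WT26 and 59.1 and 61.4 in its knockout, beside 185 and 168 in RBC and 20.9 and 24.2 in the *Mettl3* KO libraries. It fell (-1.67 ± 0.16 and -2.97 ± 0.19), the fall being deeper in *Mettl3* KO (difference 1.30 ± 0.26, adjusted p = 6.70e-04). The ligand *Bmp4* fell in *Mettl3* KO (-1.71 ± 0.078) and had -0.54 ± 0.077 in *Mettl14* KO, with a called difference of 1.17 ± 0.11 (adjusted p = 1.70e-07).

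The other genes named by size, from those whose mean level reached 50 normalized counts, came from many functions, and genes of lower level with larger shared rises are not named. *Serpinf1*, a secreted factor of the serpin family, had 78.7 and 94.5 normalized counts in the WT26 libraries but 337 and 414 in those of *Mettl14* KO, and 34.5 and 15.8 in RBC but 225 and 227 in those of *Mettl3* KO. *Sdk2*, a cell adhesion protein, had 14.5 and 7.52 normalized counts in WT26 against 51.1 and 44.8 in *Mettl14* KO, and 13.8 and 31.5 in RBC against 228 and 192 in *Mettl3* KO. *Loxl1*, an enzyme that crosslinks elastin, had 17.2 and 18.3 normalized counts in WT26 and 61.1 and 82.8 in its knockout, beside 24.1 and 20.7 in RBC and 103 and 114 in the *Mettl3* KO libraries. In none of these did knockout and parent overlap in either pair, and the rises in *Mettl14* KO and *Mettl3* KO were 2.12 ± 0.16 and 3.20 ± 0.22 for *Serpinf1*, 2.08 ± 0.35 and 3.17 ± 0.24 for *Sdk2* and 2.02 ± 0.25 and 2.28 ± 0.22 for *Loxl1*. The difference was called for *Serpinf1* alone of the 3 (-1.08 ± 0.30, adjusted p = 0.007), and it fell under the fold threshold without *Mettl14* KO replicate 1 (-0.93), RBC replicate 2 (-0.58) or WT26 replicate 2 (-0.95). *Slc22a21*, a carnitine transporter, rose by 2.01 ± 0.20 and 2.20 ± 0.22. *Osbpl6*, a sterol-binding protein, rose by 2.26 ± 0.21 and 2.03 ± 0.26, *Nat8l*, which makes N-acetylaspartate, by 2.14 ± 0.19 and 1.91 ± 0.22, and the kinase gene *Nim1k* by 2.13 ± 0.24 and 1.87 ± 0.30. For all 8 genes named here the MeRIP-seq input libraries gave positive fold changes in both knockouts.

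Other listed genes that rose in both are given here one by one. The Wnt receptor gene *Fzd2* had 47.02 and 54.8 normalized counts in the WT26 libraries but 116 and 145 in those of *Mettl14* KO, and 70.1 and 67.04 in RBC but 168 and 189 in those of *Mettl3* KO, rises of 1.37 ± 0.17 and 1.38 ± 0.16 with an interval of the difference from -0.54 to 0.52. *Fgfr2*, a fibroblast growth factor receptor, had 37.98 and 36.5 normalized counts in WT26 against 84.1 and 97.4 in *Mettl14* KO, and 82.8 and 70.98 in RBC against 294 and 311 in *Mettl3* KO. It rose by 1.28 ± 0.18 and 1.98 ± 0.13. *Pax6*, a transcription factor of eye and neural progenitors, had 20.8 and 23.6 normalized counts in WT26 and 91.1 and 81.8 in its knockout, beside 73.6 and 62.1 in RBC and 168 and 144 in the *Mettl3* KO libraries, rises of 1.96 ± 0.22 and 1.21 ± 0.16. The lipoprotein receptor gene *Vldlr* rose by 1.07 ± 0.11 and 1.47 ± 0.13, and *Timp2*, an inhibitor of matrix metalloproteinases, by 3.19 ± 0.30 and 1.60 ± 0.24. *Dppa3*, a gene of the early embryo and germ line, stood at 2.71 and 2.15 normalized counts in the WT26 libraries but 14.02 and 18.5 in those of *Mettl14* KO, and 2.30 and 1.97 in RBC but 13.04 and 16.1 in those of *Mettl3* KO, so that few reads carried its rise; the ratios of summed counts were 6.64 (95% counting interval 2.58 to 21.8) and 6.82 (2.41 to 26.6). These counting intervals cover counting error only.

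**Figure D2:**
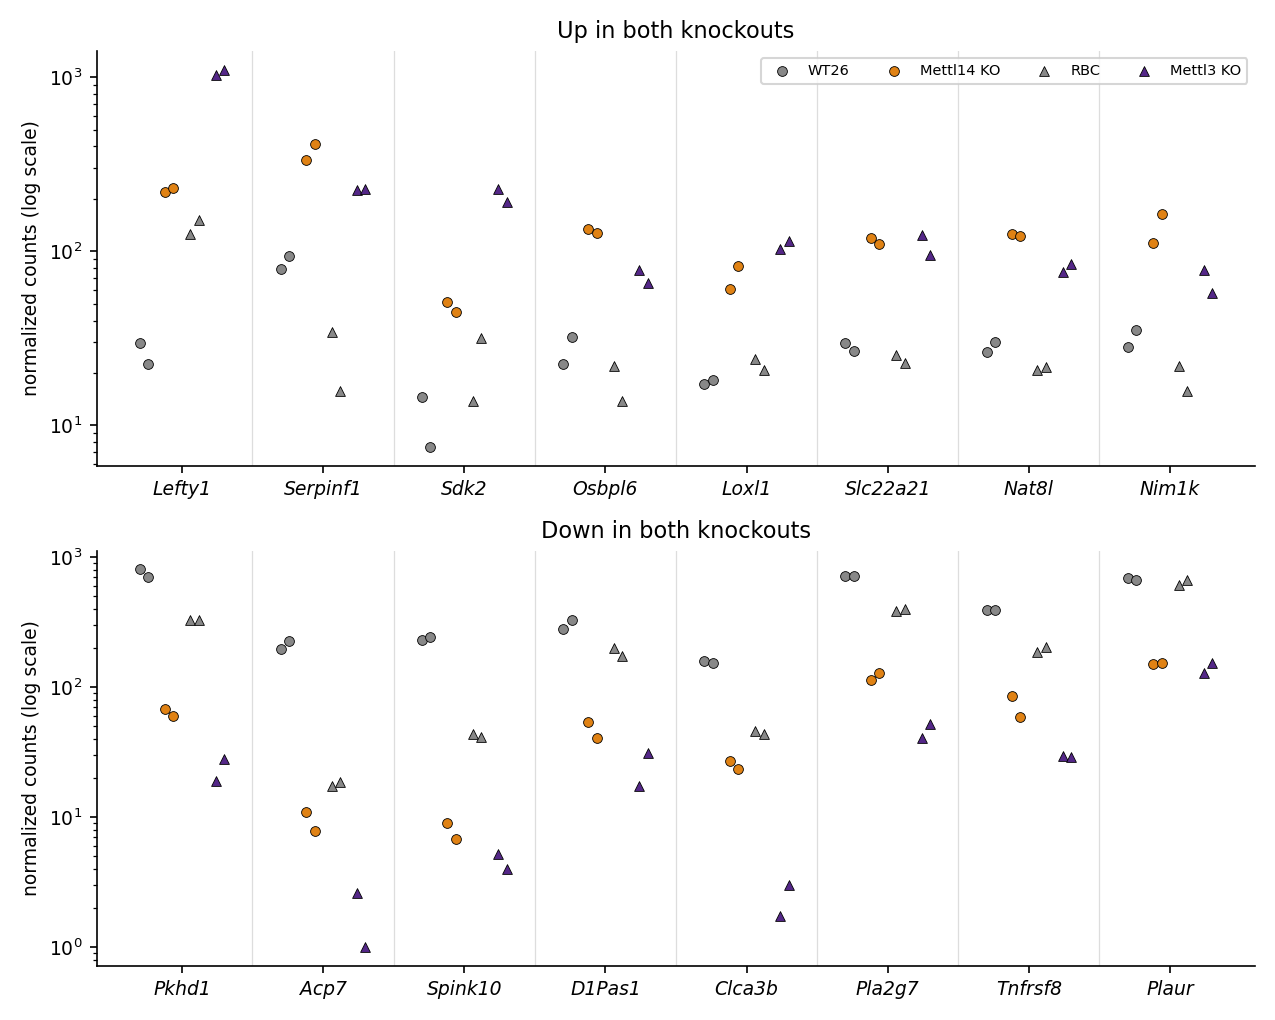
Normalized counts per library on a log axis for genes that rose or fell in both knockouts, with the libraries of each line in one colour. Each knockout's points lie on the same side of its own parent, for *Lefty1* at 218 and 231 above 29.8 and 22.5 and for *Plaur* at 151 and 154 below 696 and 673.

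Among the genes that fell in both, the receptor of urokinase, *Plaur* (ENSMUSG00000046223, chr7:24462484-24475968, plus strand), which focuses protease activity at the cell surface, was one of the most evenly changed. It had 696 and 673 normalized counts in WT26 against 151 and 154 in *Mettl14* KO, and 606 and 669 in RBC against 129.6 and 153 in *Mettl3* KO, fold changes of -2.17 ± 0.094 and -2.18 ± 0.10, and an interval of the difference from -0.28 to 0.30. *Pkhd1* (ENSMUSG00000043760, chr1:20057779-20618064, minus strand), the gene of fibrocystin, a protein of the primary cilium, had 804 and 708 normalized counts in WT26 and 68.1 and 60.4 in its knockout, beside 328 and 329 in RBC and 19.1 and 28.2 in the *Mettl3* KO libraries. It fell (-3.56 ± 0.12 and -3.81 ± 0.16), the largest shared fall among the named genes by the smaller of the 2 changes. *Pla2g7*, which encodes the acetylhydrolase of platelet-activating factor, had 714 and 718 normalized counts in the WT26 libraries but 113 and 128 in those of *Mettl14* KO, and 385 and 402 in RBC but 40.9 and 52.4 in those of *Mettl3* KO. *Tnfrsf8*, the receptor CD30, had 391 and 389.7 normalized counts in WT26 against 85.1 and 59.4 in *Mettl14* KO, and 185 and 205 in RBC against 29.6 and 29.2 in *Mettl3* KO. Both fell in both knockouts without overlap of the groups, with -2.57 ± 0.10 and -3.09 ± 0.12, and with -2.43 ± 0.14 and -2.73 ± 0.17.

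Several shared falls started from unequal levels in the parents. *Acp7*, an acid phosphatase gene, had 195 and 225 normalized counts in WT26 and 11.02 and 7.79 in its knockout, beside 17.2 and 18.7 in RBC and 2.61 and 1.01 in the *Mettl3* KO libraries, so that the floor of counting was close in *Mettl3* KO, where the ratio to RBC was 0.103 with a 95% counting interval of 0.0267 to 0.290. *Clca3b*, of the chloride channel accessory family, had 159 and 155 normalized counts in the WT26 libraries but 27.04 and 23.4 in those of *Mettl14* KO, and 45.98 and 43.4 in RBC but 1.74 and 3.02 in those of *Mettl3* KO, and its ratio in *Mettl3* KO was 0.0523 (0.0166 to 0.127). The called difference of *Clca3b* (1.55 ± 0.53) was not called without *Mettl14* KO replicate 1 (adjusted p = 0.0629) or *Mettl3* KO replicate 1 (adjusted p = 0.2). *Spink10*, a serine protease inhibitor gene, had 232 and 245 normalized counts in WT26 against 9.01 and 6.82 in *Mettl14* KO, and 43.7 and 41.4 in RBC against 5.22 and 4.03 in *Mettl3* KO, a difference of -1.74 ± 0.56 whose adjusted p rose to 0.0689 without *Mettl14* KO replicate 2 and 0.182 without *Mettl3* KO replicate 1. *D1Pas1*, a DEAD-box helicase gene of the testis, fell (-2.68 ± 0.17 and -2.96 ± 0.21), and it is close in sequence to Ddx3x and Ddx3y, so its reads may be shared with them.

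The 2-cell-like set holds transcripts that mark a rare, fluctuating state of ES cells resembling the 2-cell embryo. 7 of 22 listed genes were tested. 6 fell in *Mettl14* KO, 5 fell in *Mettl3* KO and 5 fell in both, where 2.10% of all genes did, with medians of -1.86 and -1.42. *Zscan4d*, of a cluster of zinc finger genes active in that state, had 52.4 and 41.9 normalized counts in WT26 and 15.02 and 11.7 in its knockout, beside 47.1 and 35.5 in RBC and 13.9 and 15.1 in the *Mettl3* KO libraries, fold changes of -1.82 ± 0.30 (adjusted p = 5.20e-05) and -1.49 ± 0.30 (adjusted p = 3.93e-04). The Zscan4 and Usp17l genes are near-identical copies, so reads may be split among them, and levels were low. Leaving out either replicate of *Mettl3* KO or of RBC reduced the shared falls to 3, DESeq2 gave 2, and 1 of the genes tested had at least 10 counts in every library and fell in both.

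Genes of the actin cytoskeleton and targets of the serum response factor SRF, which answers to actin dynamics and growth factors through the CArG box, leaned downward in both. 28 of 32 were tested. 8 fell and 3 rose in *Mettl14* KO, 14 fell in *Mettl3* KO, where the highest fold change was 0.61, and 6 fell in both. The medians were -0.42 and -1.02. The shared falls of *Acta2* and *Myl9* rested on few reads in *Mettl14* KO. *Acta2* had 1 read there against 28 in WT26, and *Myl9* had 2 against 17. The counting intervals of these ratios ran from 8.79e-04 to 0.217 for *Acta2* and from 0.0133 to 0.499 for *Myl9*. The promoter stretches below, from RefSeq on GRCm38.p6, show the CArG box in capitals in members of the list and are printed because this box is the element by which SRF binds.
Acta1: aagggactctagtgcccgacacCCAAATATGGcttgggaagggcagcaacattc
Myl9: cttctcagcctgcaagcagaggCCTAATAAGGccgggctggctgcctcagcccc
Cnn2: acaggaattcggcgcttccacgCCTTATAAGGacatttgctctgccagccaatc
Vcl: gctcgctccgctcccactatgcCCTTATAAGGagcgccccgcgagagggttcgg
They lie at chr8:123894817-123894870 (minus strand), chr2:156775281-156775334 (plus), chr10:79988522-79988575 (plus) and chr14:20929149-20929202 (plus), each within the 250 bases before the start. A CArG box on either strand was found in 7 of 24 promoters of the list (29.2%) and in 1.25% of the 10806 promoters matched for all genes tested, over windows from 250 bases before to 50 after the start. The list was chosen for SRF targets, so this share describes the list and not the change.

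Among these genes, *Cnn2*, an actin-binding calponin, had 137 and 123 normalized counts in the WT26 libraries but 50.1 and 37.99 in those of *Mettl14* KO, and 154 and 171 in RBC but 70.4 and 84.6 in those of *Mettl3* KO and fell (-1.57 ± 0.18 and -1.07 ± 0.16), with -0.94 in *Mettl3* KO without its replicate 1 and -0.998 without RBC replicate 2. *Vcl*, vinculin of focal adhesions, had 2840.4 and 2950.3 normalized counts in WT26 against 1609 and 1628 in *Mettl14* KO, and 4168 and 4247 in RBC against 2007 and 1968 in *Mettl3* KO. It fell in *Mettl3* KO (-1.08 ± 0.045) and had -0.84 ± 0.045 in *Mettl14* KO, short of the fold threshold. *Acta1*, the skeletal muscle actin, had 1.81 and 2.15 normalized counts in WT26 and 3.005 and 1.95 in its knockout, beside 20.7 and 25.6 in RBC and 3.48 and 3.02 in the *Mettl3* KO libraries, so that it was near the floor in both lines of the WT26 pair and fell in *Mettl3* KO alone. *Tagln*, the smooth muscle protein transgelin, showed the same starting difference, with 6.33 and 7.52 normalized counts in the WT26 libraries but 6.01 and 3.90 in those of *Mettl14* KO, and 144 and 151 in RBC but 13.04 and 11.1 in those of *Mettl3* KO, and *Flnc*, filamin C, had 563 and 599 normalized counts in WT26 against 715 and 850.5 in *Mettl14* KO, and 2760.1 and 2557 in RBC against 633 and 671 in *Mettl3* KO. In all 3 RBC stood above the other lines, and the difference was called for *Tagln* (3.12 ± 0.64) and *Flnc* (2.46 ± 0.10). The members that fell evenly in both were *Vim*, the intermediate filament vimentin (-1.30 ± 0.058 and -1.36 ± 0.058), *Lmna*, the nuclear lamins A and C (-1.78 ± 0.10 and -1.81 ± 0.089), and *Junb*, an AP-1 transcription factor (-1.82 ± 0.12 and -1.98 ± 0.12). *Vim* had 2230.0 and 2412 normalized counts in WT26 and 984 and 903 in its knockout, beside 2519.8 and 2686 in RBC and 988 and 1049 in the *Mettl3* KO libraries, and *Lmna* had 471 and 487 normalized counts in the WT26 libraries but 149 and 129.6 in those of *Mettl14* KO, and 632 and 689 in RBC but 189 and 189 in those of *Mettl3* KO. In contrast *Fos*, the partner of *Junb* in AP-1, rose in *Mettl14* KO (1.37 ± 0.11) and had -0.080 ± 0.13 in *Mettl3* KO, a called difference of 1.45 ± 0.17 (adjusted p = 2.70e-06).

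Of 43 integrin, laminin, collagen and matrix genes tested, 7 fell in *Mettl14* KO, 16 in *Mettl3* KO and 4 in both, against 1 and 2 that rose, with medians of -0.51 and -0.79. *Lama1* (ENSMUSG00000032796, chr17:67697259-67822647, plus strand), the laminin alpha chain of the first basement membranes, had 11274 and 11271 normalized counts in WT26 against 3894 and 3960.1 in *Mettl14* KO, and 9795 and 9899.7 in RBC against 2829 and 2761 in *Mettl3* KO. It fell (-1.52 ± 0.050 and -1.82 ± 0.050). *Itga3*, an integrin that binds laminins, had 1772 and 1896 normalized counts in WT26 and 615 and 635 in its knockout, beside 1748 and 1854 in RBC and 555 and 560.0 in the *Mettl3* KO libraries. It fell (-1.55 ± 0.058 and -1.69 ± 0.059), an interval of the difference from -0.032 to 0.31. Other basement membrane genes fell further in *Mettl3* KO. *Lamb1*, a laminin beta chain, had 1057 and 1083 normalized counts in the WT26 libraries but 1425 and 1360.0 in those of *Mettl14* KO, and 2453 and 2469 in RBC but 829 and 927 in those of *Mettl3* KO, which gave 0.38 ± 0.056 in *Mettl14* KO, a fall (-1.49 ± 0.056) in *Mettl3* KO and a called difference of 1.87 ± 0.080 (adjusted p = 9.82e-12). *Lama4*, by contrast, fell further in *Mettl14* KO (-2.92 ± 0.21) than in *Mettl3* KO (-1.60 ± 0.31). Its difference of -1.32 ± 0.42 was -0.68 and not called without *Mettl3* KO replicate 2.

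The FGF and ERK list, a pathway through which ES cells leave pluripotency, held 4 genes that fell in both and 1 that rose in both of 25 tested. *Dusp6*, a phosphatase induced by ERK that turns it off, had 1490.3 and 1511 normalized counts in WT26 against 476 and 482 in *Mettl14* KO, and 1098 and 1112 in RBC against 314 and 371 in *Mettl3* KO. It fell (-1.65 ± 0.069 and -1.69 ± 0.073), with an interval of the difference from -0.16 to 0.26. *Spry2*, another feedback inhibitor, fell (-1.257 ± 0.083 and -1.16 ± 0.081), and *Phlda1*, an immediate target of the pathway, with -1.32 ± 0.21 and -1.95 ± 0.22. In total 4 members rose and 5 fell in *Mettl14* KO, and 2 rose and 8 fell in *Mettl3* KO, with medians of -0.47 and -0.26, and the count that rose in *Mettl14* KO was 2 without its replicate 1. *Dnmt3l*, a cofactor of the de novo DNA methyltransferases, also fell in both, with 775 and 860.0 normalized counts in WT26 and 191 and 183 in its knockout, beside 936 and 809 in RBC and 303 and 331 in the *Mettl3* KO libraries, fold changes of -2.12 ± 0.095 and -1.46 ± 0.087. *Ddx58*, the cytosolic RNA sensor RIG-I, had 426 and 435 normalized counts in the WT26 libraries but 172 and 186 in those of *Mettl14* KO, and 316 and 346 in RBC but 133 and 129 in those of *Mettl3* KO and fell (-1.263 ± 0.093 and -1.34 ± 0.10).

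The 119 genes that rose in *Mettl14* KO and fell in *Mettl3* KO had median fold changes of 2.05 and -1.75, and the difference was called for each, as the class requires. *Asz1* (ENSMUSG00000010796, chr6:18050964-18109061, minus strand), a protein of the piRNA pathway that silences transposons in germ cells, had 24.4 and 24.7 normalized counts in WT26 against 169 and 189 in *Mettl14* KO, and 149 and 123 in RBC against 19.1 and 13.1 in *Mettl3* KO. The *Mettl14* KO and RBC libraries were high and the WT26 and *Mettl3* KO libraries low, without overlap. The fold changes were 2.86 ± 0.19 (adjusted p = 1.18e-09) and -3.05 ± 0.22 (adjusted p = 2.38e-09), a difference of 5.91 ± 0.29 (adjusted p = 6.92e-11). For *Asz1* the levels of the parents were themselves unequal, at 2.46 ± 0.20 for RBC against WT26, and those of the knockouts were unequal in the other order, at 3.45 ± 0.21 for *Mettl14* KO against *Mettl3* KO.

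*Asz1* belongs to a set of germline genes that DNA methylation and the repressor complex of MGA, MAX and E2F6 keep silent in somatic cells. Binding of that complex is known at the E-box CACGTG, and the stretches below, again from RefSeq promoters on GRCm38.p6, show that motif in capitals in members of the list that fell in *Mettl3* KO.
Sycp1: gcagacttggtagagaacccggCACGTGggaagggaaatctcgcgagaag
Mael: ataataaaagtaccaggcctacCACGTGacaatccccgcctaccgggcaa
Slc25a31: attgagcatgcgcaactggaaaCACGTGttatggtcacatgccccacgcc
Tdrd1: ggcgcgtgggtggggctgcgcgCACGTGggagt
They lie at chr3:102936167-102936216 (minus strand), chr1:166238940-166238989 (minus), chr3:40708756-40708805 (plus) and chr19:56826176-56826208 (plus). CACGTG, which reads the same on both strands, was in 11 of 20 promoters of the list (55%) and in 10.1% of all matched promoters. Whether the motif went with the falls in *Mettl3* KO was not tested. *Hormad1*, which did not fall there, also carried it, and no match was found for *Asz1*, *Dazl* or *Tex15*. The share is a description of the list, and a match is not evidence of binding in these cells.

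Of 22 germline genes tested, 3 rose and 3 fell in *Mettl14* KO while 1 rose and 10 fell in *Mettl3* KO, and 2 rose in the first and fell in the second. The difference was called higher in *Mettl14* KO for 12 (54.5%) and lower for 1, against 7.71% and 5.87% of all genes, and the medians were 0.24 in *Mettl14* KO and -0.84 in *Mettl3* KO. Over the libraries left out in turn, between 10 and 13 members had a higher difference. *Sycp1*, which builds the synaptonemal complex of meiosis, had 82.3 and 66.6 normalized counts in WT26 and 138 and 154 in its knockout, beside 740.3 and 735 in RBC and 182 and 138 in the *Mettl3* KO libraries. Its change was 0.96 ± 0.15 in *Mettl14* KO, just under the fold threshold, and -2.20 ± 0.11 in *Mettl3* KO. *Tex15*, a factor of piRNA-directed DNA methylation in male germ cells, had 639 and 609 normalized counts in the WT26 libraries but 1035 and 1019 in those of *Mettl14* KO, and 2824 and 2797 in RBC but 1358 and 1387 in those of *Mettl3* KO, with 0.72 ± 0.053 and -1.03 ± 0.048. In both genes the *Mettl3* KO level came down from an RBC level far above WT26, and a called difference resulted, 3.16 ± 0.19 (adjusted p = 6.04e-10) and 1.75 ± 0.071 (adjusted p = 5.85e-12). *Dazl*, an RNA-binding protein of germ cells, began at similar levels in the parents, with 853 and 845 normalized counts in WT26 against 651 and 633 in *Mettl14* KO, and 1094 and 1049.9 in RBC against 105 and 95.7 in *Mettl3* KO. It fell (-3.41 ± 0.083) in *Mettl3* KO and had -0.40 ± 0.066 in *Mettl14* KO, and its difference was 3.01 ± 0.11 (adjusted p = 9.52e-13). *Slc25a31*, the ADP/ATP carrier of testis, fell in *Mettl3* KO (-1.75 ± 0.21) with -0.12 ± 0.25 in *Mettl14* KO. *Hormad1*, a meiotic chromosome protein, did otherwise, falling (-1.04 ± 0.079) in *Mettl14* KO with -0.64 ± 0.075 in *Mettl3* KO. *Sohlh2*, a germ cell transcription factor outside the list, was the gene named for the largest fall in *Mettl3* KO with little change in *Mettl14* KO, at 709 and 665 normalized counts in WT26 and 637 and 611 in its knockout, beside 741 and 812 in RBC and 86.96 and 82.6 in the *Mettl3* KO libraries, with -3.19 ± 0.095 and -0.14 ± 0.073.

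**Figure D3:**
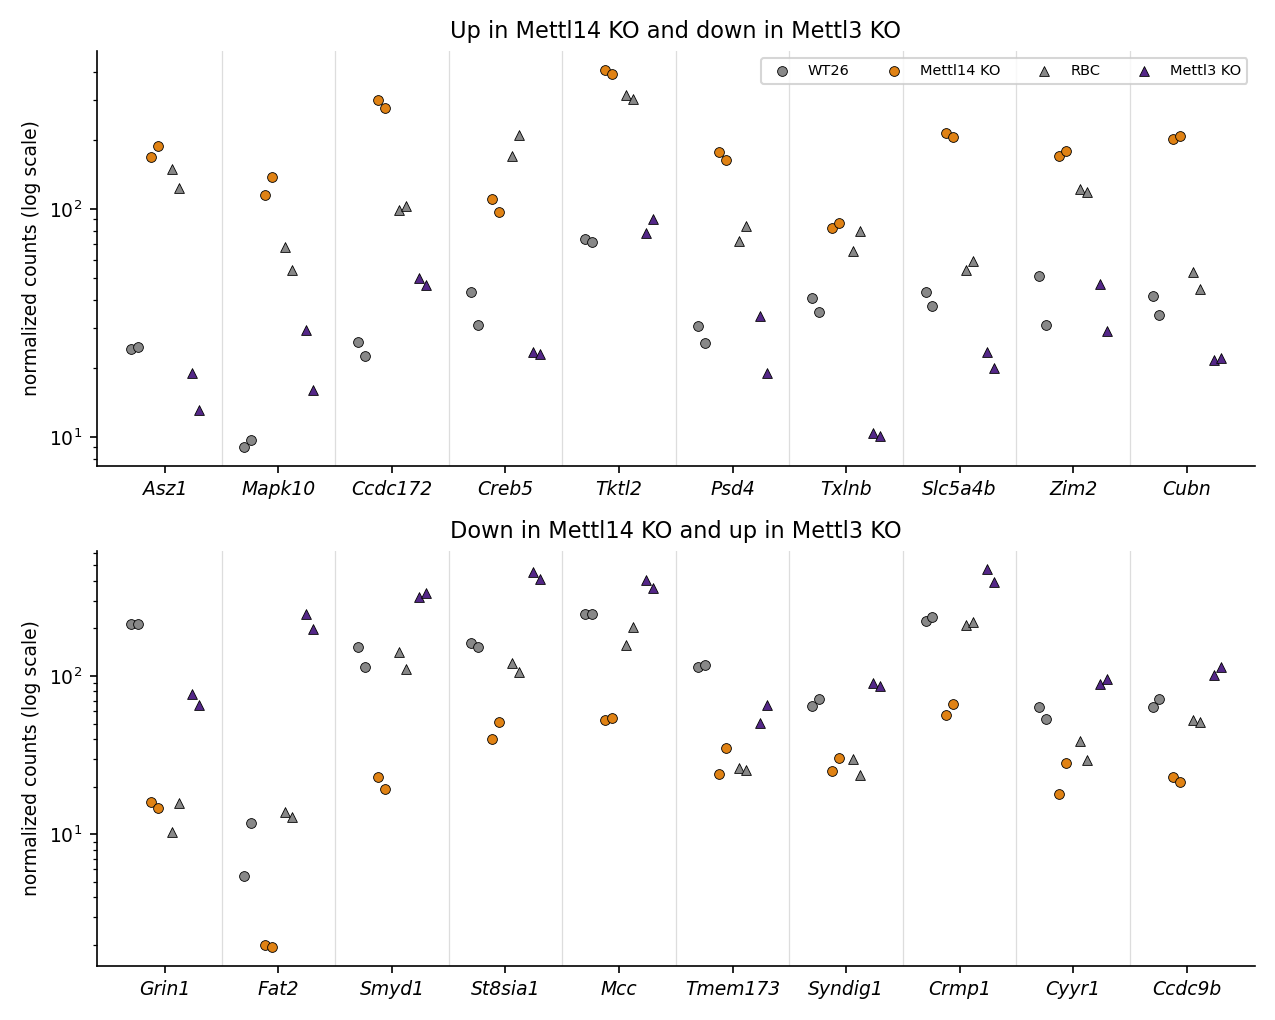
Normalized counts per library on a log axis for genes with opposite changes, in the order WT26, *Mettl14* KO, RBC and *Mettl3* KO. For *Asz1* the points rise from 24.4 and 24.7 to 169 and 189 in the WT26 pair and drop from 149 and 123 to 19.1 and 13.1 in the RBC pair, and *Grin1* shows the reverse.

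The other genes named for this direction were led by *Mapk10*, the neuronal kinase JNK3, with 9.04 and 9.66 normalized counts in the WT26 libraries but 115 and 138 in those of *Mettl14* KO, and 67.8 and 54.2 in RBC but 29.6 and 16.1 in those of *Mettl3* KO and fold changes of 3.75 ± 0.28 and -1.38 ± 0.27. *Ccdc172*, a coiled-coil gene, had 26.2 and 22.5 normalized counts in WT26 against 301 and 279 in *Mettl14* KO, and 98.9 and 104 in RBC against 49.6 and 46.3 in *Mettl3* KO. *Creb5*, a transcription factor of the CREB family, had 43.4 and 31.1 normalized counts in WT26 and 110.2 and 97.4 in its knockout, beside 171 and 212 in RBC and 23.5 and 23.2 in the *Mettl3* KO libraries. In *Creb5* the fall in *Mettl3* KO (-3.04 ± 0.20) exceeded the rise in *Mettl14* KO (1.46 ± 0.20), whereas *Ccdc172* rose by 3.56 ± 0.16 and fell (-1.07 ± 0.16). The transketolase-like gene *Tktl2* changed by 2.45 ± 0.11 and -1.88 ± 0.11. *Psd4*, an activator of the small GTPase ARF6, changed by 2.59 ± 0.21 and -1.53 ± 0.23. *Txlnb*, a taxilin of muscle, changed by 1.14 ± 0.20 and -2.82 ± 0.26. *Slc5a4b*, of the sodium-glucose transporter family, changed by 2.37 ± 0.16 and -1.37 ± 0.22, and *Zim2*, an imprinted zinc finger gene beside *Peg3*, by 2.07 ± 0.20 and -1.63 ± 0.21. Under total-count scaling the falls of *Ccdc172* and *Cubn* in *Mettl3* KO were -0.92 and -0.98, short of the fold threshold. For the 10 genes named by size in this direction, *Asz1* and *Cubn* among them, the inputs gave a positive change in *Mettl14* KO and a negative one in *Mettl3* KO, such as 2.70 and -1.86 for *Mapk10* and 2.19 and -1.35 for *Tktl2*. The rise of *Txlnb* was not clear in the inputs, where the WT26 pair overlapped. Its normalized input counts were 22.8 and 48.5 in WT26 and 56.5 and 21.05 in *Mettl14* KO.

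Primitive endoderm is the extra-embryonic layer that arises beside the epiblast, and its genes appear in ES cultures at low levels. 16 of 23 listed genes were tested. 7 rose and 2 fell in *Mettl14* KO, 9 fell in *Mettl3* KO, where the highest fold change was 0.86, 3 rose in the first and fell in the second, and the difference was higher for 7 (43.8%), with medians of 0.43 and -1.07. *Srgn*, the proteoglycan serglycin, had 10.9 and 7.52 normalized counts in the WT26 libraries but 67.1 and 63.3 in those of *Mettl14* KO, and 35.6 and 33.5 in RBC but 13.04 and 11.1 in those of *Mettl3* KO. *Cubn* (ENSMUSG00000026726, chr2:13276338-13491813, minus strand), the endocytic receptor cubilin of visceral endoderm, had 41.6 and 34.4 normalized counts in WT26 against 202 and 209 in *Mettl14* KO, and 52.9 and 44.4 in RBC against 21.7 and 22.2 in *Mettl3* KO. *Sox7*, a transcription factor of the layer, had 5.43 and 5.37 normalized counts in WT26 and 15.02 and 22.4 in its knockout, beside 25.3 and 25.6 in RBC and 11.3 and 10.1 in the *Mettl3* KO libraries. *Mettl14* KO stood above WT26 and *Mettl3* KO below RBC in all 3, by 2.79 ± 0.28 and -1.50 ± 0.30, 2.43 ± 0.17 and -1.14 ± 0.23, and 1.77 ± 0.44 and -1.24 ± 0.35.

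The transcription factors that define the layer were low throughout. *Gata6* had 17.2 and 16.1 normalized counts in the WT26 libraries but 44.1 and 44.8 in those of *Mettl14* KO, and 22.99 and 14.8 in RBC but 11.3 and 15.1 in those of *Mettl3* KO, a rise of 1.41 ± 0.29 in *Mettl14* KO beside -0.50 ± 0.36 in the other knockout. *Gata4* had 7.23 and 9.66 normalized counts in WT26 against 31.05 and 32.1 in *Mettl14* KO, and 8.05 and 5.91 in RBC against 8.70 and 17.1 in *Mettl3* KO, a rise of 1.90 ± 0.38 in *Mettl14* KO beside 0.86 ± 0.48 in the other knockout, and the difference was not called (adjusted p = 0.21). *Pdgfra*, a receptor on its precursors, had 50.6 and 44.02 normalized counts in WT26 and 150.2 and 143 in its knockout, beside 37.9 and 42.4 in RBC and 19.1 and 22.2 in the *Mettl3* KO libraries. The difference was called for *Gata6* (1.91 ± 0.46, adjusted p = 0.00276) and *Pdgfra* (2.59 ± 0.30, adjusted p = 2.12e-06). Of the 8 marker genes of primitive endoderm 5 were tested and Sox17, Foxa2 and Afp were too low. The summed level of all 8 was 99.8 to 107 normalized counts in WT26, 312 to 326 in *Mettl14* KO, 171 to 190.3 in RBC and 121 to 151 in *Mettl3* KO. The part of primitive endoderm cells in these results was not tested. The basement membrane genes of the list went another way, since *Lama1* fell in both, and *Lamc1* had -0.53 ± 0.053 in *Mettl14* KO and fell (-1.23 ± 0.054) in *Mettl3* KO. With at least 10 counts required in every library the rises in *Mettl14* KO numbered 4 and the opposite calls 1, since most of the list was then not tested.

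Cell junction and epithelial genes, which hold ES cells together as an epithelium-like sheet, formed a further group whose change differed. Of 29 tested, 9 rose and 2 fell in *Mettl14* KO, 2 rose and 5 fell in *Mettl3* KO, and the difference was higher for 13 (44.8%) and lower for 2. The medians were 0.50 and -0.47. *Grhl2*, a transcription factor that maintains epithelia, had 32.6 and 60.1 normalized counts in the WT26 libraries but 286 and 273 in those of *Mettl14* KO, and 180.5 and 187 in RBC but 122 and 92.7 in those of *Mettl3* KO. It rose by 2.62 ± 0.19 in *Mettl14* KO and had -0.77 ± 0.17 in *Mettl3* KO, a difference of 3.39 ± 0.25 (adjusted p = 1.08e-08). *Dsp*, desmoplakin of desmosomes, had 181 and 209 normalized counts in WT26 against 858 and 844 in *Mettl14* KO, and 418 and 330.3 in RBC against 266 and 273 in *Mettl3* KO, with 2.13 ± 0.10 and -0.47 ± 0.10. *Cldn6*, a tight junction claudin, had 47.02 and 54.8 normalized counts in WT26 and 75.1 and 89.6 in its knockout, beside 72.4 and 94.6 in RBC and 22.6 and 17.1 in the *Mettl3* KO libraries. It fell (-2.06 ± 0.24) in *Mettl3* KO and had 0.70 ± 0.20 in *Mettl14* KO. *Cdh1*, E-cadherin, had 4698 and 4610.2 normalized counts in the WT26 libraries but 4041 and 4346 in those of *Mettl14* KO, and 3231 and 3069 in RBC but 1276 and 1308 in those of *Mettl3* KO, so that its fall in *Mettl3* KO (-1.29 ± 0.052) had -0.15 ± 0.050 beside it in *Mettl14* KO, and *Epcam*, another epithelial adhesion protein, had 0.50 ± 0.079 and -0.96 ± 0.083 with a called difference of 1.46 ± 0.11. *Cdh2*, the N-cadherin of mesenchymal and neural cells, moved in the other order, with 65.1 and 62.3 normalized counts in WT26 against 41.1 and 50.7 in *Mettl14* KO, and 74.7 and 69.99 in RBC against 159 and 171 in *Mettl3* KO, a rise of 1.19 ± 0.15 in *Mettl3* KO beside -0.47 ± 0.19 in *Mettl14* KO. With total-count scaling 3 rather than 5 members fell in *Mettl3* KO.

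The 36 genes that fell in *Mettl14* KO and rose in *Mettl3* KO had medians of -1.73 and 1.43. *Grin1* (ENSMUSG00000026959, chr2:25291181-25319187, minus strand), the obligatory subunit of NMDA glutamate receptors, had 214 and 214 normalized counts in WT26 and 16.02 and 14.6 in its knockout, beside 10.3 and 15.8 in RBC and 77.4 and 65.5 in the *Mettl3* KO libraries. The fold changes were -3.79 ± 0.20 (adjusted p = 5.62e-11) and 2.43 ± 0.25 (adjusted p = 2.61e-07), and the difference was -6.22 ± 0.32 (adjusted p = 1.14e-10). The parents were unequal here too, WT26 being the highest line and RBC standing near *Mettl14* KO. *Grin1* overlaps the antisense gene *Grin1os*, and since the strand setting of the counting is not given in the sources used here their reads cannot be told apart. *Fat2*, an atypical cadherin, had 5.43 and 11.8 normalized counts in the WT26 libraries but 2.003 and 1.95 in those of *Mettl14* KO, and 13.8 and 12.8 in RBC but 246 and 198 in those of *Mettl3* KO. Its rise in *Mettl3* KO was 4.06 ± 0.24, while its fall in *Mettl14* KO rested on few reads (-2.01 ± 0.67, with a ratio of counts of 0.237 and a 95% counting interval of 0.0580 to 0.726) and was not called without *Mettl14* KO replicate 1 (adjusted p = 0.0689), *Mettl14* KO replicate 2 (adjusted p = 0.079) or WT26 replicate 2 (adjusted p = 0.192).

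*Smyd1*, a methyltransferase gene of muscle, had 152 and 115 normalized counts in WT26 against 23.04 and 19.5 in *Mettl14* KO, and 141 and 110.4 in RBC against 317 and 335 in *Mettl3* KO, and changed by -2.65 ± 0.22 and 1.38 ± 0.14. *St8sia1*, the sialyltransferase that makes the ganglioside GD3, had 162 and 154 normalized counts in WT26 and 40.1 and 51.6 in its knockout, beside 121 and 106 in RBC and 456 and 409 in the *Mettl3* KO libraries. It changed by -1.78 ± 0.16 and 1.93 ± 0.12, with the 2 parents near each other and the knockouts far apart. *Syndig1*, a protein of excitatory synapses, changed by -1.30 ± 0.22 and 1.73 ± 0.21, and *Cyyr1* by -1.35 ± 0.25 and 1.43 ± 0.22. *Sema6a*, a semaphorin that guides axons, had 18.1 and 16.1 normalized counts in the WT26 libraries but 4.01 and 6.82 in those of *Mettl14* KO, and 22.99 and 17.7 in RBC but 76.5 and 75.5 in those of *Mettl3* KO, with -1.64 ± 0.43 and 1.91 ± 0.24. The remaining named genes of this direction had rises in *Mettl3* KO close to the fold threshold. *Mcc*, a gene known from colorectal tumours, rose by 1.08 ± 0.11 in *Mettl3* KO, with 0.998 without *Mettl3* KO replicate 1 and 0.92 without RBC replicate 1. *Crmp1*, a cytoskeletal mediator of semaphorin signals, rose by 1.004 ± 0.10, with 0.87 and 0.98 without the same libraries. *Ccdc9b* rose by 1.05 ± 0.17 and *Tmem173* by 1.14 ± 0.24, with 0.97 and 0.96 without *Mettl3* KO replicate 2. Their falls in *Mettl14* KO, of -2.19 ± 0.15, -1.89 ± 0.14, -1.60 ± 0.22 and -1.96 ± 0.21, were well past it.

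*Tmem173* encodes STING, the adaptor of cytosolic DNA sensing, and belongs to the interferon and double-stranded RNA list. There 4 genes rose and 10 fell in *Mettl14* KO, 5 rose and 2 fell in *Mettl3* KO, of 33 tested. 2 fell in both, and 2 fell in *Mettl14* KO and rose in *Mettl3* KO. The difference was lower for 8 (24.2%) and higher for 2, against 5.87% and 7.71% of all genes. The rises in *Mettl3* KO numbered 3 without its replicate 1. *Ifitm1*, a membrane protein induced by interferon, had 248 and 271 normalized counts in WT26 against 87.1 and 101.3 in *Mettl14* KO, and 114 and 109 in RBC against 132 and 144 in *Mettl3* KO, a fall (-1.46 ± 0.13) in *Mettl14* KO beside 0.31 ± 0.13 in *Mettl3* KO. *Oas1g*, of the 2′-5′ oligoadenylate synthetases that sense double-stranded RNA, had 110.3 and 111 normalized counts in WT26 and 36.1 and 34.1 in its knockout, beside 34.5 and 38.4 in RBC and 49.6 and 50.4 in the *Mettl3* KO libraries, with -1.65 ± 0.18 and 0.45 ± 0.21, though it shares sequence with *Oas1a*. *Tlr3*, the endosomal sensor of double-stranded RNA, went the other way, with 8.14 and 11.8 normalized counts in the WT26 libraries but 39.1 and 41.9 in those of *Mettl14* KO, and 18.4 and 14.8 in RBC but 13.9 and 14.1 in those of *Mettl3* KO, a rise of 2.03 ± 0.32 in *Mettl14* KO beside -0.23 ± 0.35 in *Mettl3* KO. The MHC class I gene *H2-K1* rose in *Mettl14* KO (1.47 ± 0.10) and had 0.61 ± 0.10 in *Mettl3* KO. The medians of the list, -0.019 and 0.052, were near 0. The list was written by hand, and related genes outside it did otherwise. *Mx1* and *Ddx60* rose in *Mettl14* KO (3.96 and 1.69) and fell in *Mettl3* KO (-1.90 and -2.26). *Oas1b* and *Oas1c* rose in both, by 1.16 and 1.11 in *Mettl14* KO and by 1.87 and 1.52 in *Mettl3* KO. The counts therefore describe the listed genes alone.

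Genes that changed in 1 knockout and little in the other were named by the same kind of rule. In *Mettl14* KO alone *Emid1*, a gene of the EMILIN domain family, rose, with 52.4 and 55.8 normalized counts in WT26 against 292 and 290.3 in *Mettl14* KO, and 103 and 91.7 in RBC against 93.05 and 94.7 in *Mettl3* KO, as did *Pde4c*, a cyclic AMP phosphodiesterase, *Cgn*, the tight junction protein cingulin, and *Mcmdc2*, a factor of meiotic recombination. Their fold changes in *Mettl14* KO were 2.43 ± 0.13, 2.35 ± 0.18, 2.34 ± 0.15 and 2.50 ± 0.26, and in *Mettl3* KO -0.052 ± 0.14, -0.16 ± 0.25, -0.12 ± 0.11 and 0.069 ± 0.21. *Cgn* had 47.9 and 78.4 normalized counts in WT26 and 290.4 and 340.0 in its knockout, beside 478 and 475 in RBC and 425 and 455 in the *Mettl3* KO libraries, so the *Mettl14* KO level moved from that of WT26 towards that of RBC. *Dpysl3*, a gene of growing axons, fell, with 521 and 467 normalized counts in the WT26 libraries but 67.1 and 43.8 in those of *Mettl14* KO, and 121 and 134 in RBC but 136 and 131 in those of *Mettl3* KO and fold changes of -3.16 ± 0.14 and 0.063 ± 0.14, and *Mir142hg*, the host transcript of miR-142, the lipase gene *Pnpla3* and *Accsl* fell, at -2.38 ± 0.19, -2.21 ± 0.15 and -2.10 ± 0.20 beside -0.13 ± 0.21, -0.014 ± 0.15 and 0.030 ± 0.17 in *Mettl3* KO.

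In *Mettl3* KO alone *Sall3*, a zinc finger transcription factor, rose, with 48.8 and 55.8 normalized counts in WT26 against 60.1 and 62.3 in *Mettl14* KO, and 44.8 and 28.6 in RBC against 243 and 231 in *Mettl3* KO and fold changes of 2.71 ± 0.18 there and 0.23 ± 0.20 in *Mettl14* KO. *Ppp2r2c*, a regulatory subunit of the phosphatase PP2A, *Gsap* and *Ttll6*, a tubulin polyglutamylase, rose by 2.59 ± 0.21, 1.93 ± 0.20 and 1.89 ± 0.16. *Slc1a1*, a glutamate transporter, fell, with 634 and 649.5 normalized counts in WT26 and 549.8 and 533 in its knockout, beside 429.9 and 387 in RBC and 45.2 and 57.4 in the *Mettl3* KO libraries and fold changes of -3.00 ± 0.12 and -0.24 ± 0.080. *Tie1*, a receptor kinase of endothelium, and *Neb*, the muscle protein nebulin, fell (-2.43 ± 0.19 and -2.18 ± 0.081). *Tie1* stood at 24.4 and 28.99 normalized counts in the WT26 libraries but 31.05 and 23.4 in those of *Mettl14* KO, and 159.8 and 158 in RBC but 30.4 and 28.2 in those of *Mettl3* KO, so that the *Mettl3* KO level met that of the WT26 pair.

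The largest difference of any list was at the imprinted Dlk1-Dio3 cluster of chromosome 12, whose noncoding transcripts *Meg3*, *Rian* and *Mirg* come from the maternal chromosome and are known to vary between ES clones. *Meg3* (ENSMUSG00000021268, chr12:109541001-109571726, plus strand) had 4039.5 and 4049.7 normalized counts in WT26 against 2556 and 2593 in *Mettl14* KO, and 5814 and 5391 in RBC against 30.4 and 27.2 in *Mettl3* KO. *Rian* had 8085 and 7662 normalized counts in WT26 and 5188 and 5015 in its knockout, beside 11712 and 12184 in RBC and 78.3 and 87.6 in the *Mettl3* KO libraries, and *Mirg* had 2088 and 1979 normalized counts in the WT26 libraries but 1264 and 1216 in those of *Mettl14* KO, and 2883 and 2975 in RBC but 21.7 and 18.1 in those of *Mettl3* KO. In *Mettl3* KO all 3 were brought close to loss, with fold changes of -7.59 ± 0.081, -7.17 ± 0.077 and -7.18 ± 0.089, against -0.65 ± 0.049, -0.63 ± 0.053 and -0.71 ± 0.051 in *Mettl14* KO, which passed the adjusted p and not the fold threshold. The difference was called higher for 4 of 5 genes tested, all of which fell in *Mettl3* KO. The falls of the other 2 members, *Dlk1* (-1.80 ± 0.55) and *Dio3* (-1.41 ± 0.39), rested on few reads. That of *Dlk1* was not called without *Mettl3* KO replicate 1 (adjusted p = 0.0829) or RBC replicate 1 (adjusted p = 0.135), and that of *Dio3* not without RBC replicate 2 (adjusted p = 0.0639). In *Mettl14* KO these 2 genes did not move with the noncoding transcripts. *Dio3* fell there too, by -2.50, and its difference was not called (adjusted p = 0.191). *Dlk1* had 1.11 in *Mettl14* KO, which was not called. For *Meg3*, *Rian* and *Mirg* the inputs gave -8.11, -7.57 and -7.25 in *Mettl3* KO.

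Core pluripotency genes leaned downward in *Mettl14* KO. Of 16 tested 7 fell there and 1 fell in *Mettl3* KO, with medians of -0.61 and -0.29, but several lay at the fold threshold, and the 7 falls became 4 without *Mettl14* KO replicate 2 and 3 with each chromosome scaled separately. *Foxd3*, a forkhead factor of pluripotent cells and neural crest, had 284 and 337 normalized counts in WT26 against 59.1 and 42.9 in *Mettl14* KO, and 270.1 and 266 in RBC against 155 and 205 in *Mettl3* KO. It fell (-2.60 ± 0.17) in *Mettl14* KO and had -0.58 ± 0.14 in *Mettl3* KO, a called difference of -2.02 ± 0.22 (adjusted p = 1.03e-06). *Zscan10* fell (-1.24 ± 0.063) with -0.87 ± 0.061 in *Mettl3* KO, a difference of -0.37 ± 0.087 that was below the fold threshold. In the naive pluripotency list, 5 of 21 genes fell in *Mettl3* KO and 1 in *Mettl14* KO. *Dppa5a*, an ES cell RNA-binding protein, had 5313 and 5653 normalized counts in WT26 and 4427 and 4013 in its knockout, beside 4792 and 4948 in RBC and 1144 and 1237 in the *Mettl3* KO libraries, and fell (-2.03 ± 0.060) in *Mettl3* KO with -0.38 ± 0.057 in *Mettl14* KO. *Klf5* and *Klf2*, related transcription factors, went apart, *Klf5* with -0.51 ± 0.080 and -1.72 ± 0.082 and *Klf2* with -0.62 ± 0.087 and 0.77 ± 0.091, and their differences were called in opposite senses, 1.21 ± 0.11 and -1.39 ± 0.13. The LIF, *Stat3* and *Myc* list had 7 falls in *Mettl14* KO, 3 in *Mettl3* KO and 2 shared, of 20 tested. *Gbx2*, a homeobox target of LIF, had 409 and 413 normalized counts in the WT26 libraries but 133 and 110.1 in those of *Mettl14* KO, and 614 and 568 in RBC but 271 and 335 in those of *Mettl3* KO and fell (-1.76 ± 0.12) in *Mettl14* KO, with -0.97 ± 0.10 in *Mettl3* KO just short of the threshold.

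Lists of basic cell functions held few calls in *Mettl14* KO, where 7.46% of all genes rose and 6.62% fell. In *Mettl3* KO 7.31% of all genes fell, a share that the oxidative phosphorylation list exceeded and the translation list came near. Of 35 nuclear genes of oxidative phosphorylation, 4 fell in *Mettl3* KO (8 without its replicate 2), and the fold changes lay between -0.78 and 0.46 for *Mettl14* KO, between -1.34 and 0.35 for *Mettl3* KO, with medians of -0.27 and -0.57. Of 42 genes of translation and ribosomal proteins, 3 fell in *Mettl3* KO, a count that ranged from 1 to 9 with libraries left out (1 without *Mettl3* KO replicate 1, 9 without its replicate 2 and 7 without RBC replicate 1). With total-count scaling the lowest fold change of the list there was -0.94. The medians of the list were -0.14 and -0.72. Splicing genes (50 tested) stayed within -0.76 and 0.67 for *Mettl14* KO, within -0.99 and 0.42 for *Mettl3* KO, so none passed the fold threshold, and those that passed the adjusted p in both had the same sign in 24 cases and opposite signs in 4. The m6A writers, readers and erasers (24 tested) ran from -0.53 to 0.41 and from -0.40 to 0.91. The exception among them was *Igf2bp2*, a reader of m6A, whose difference of -1.14 ± 0.13 was called (adjusted p = 1.17e-06), with 468 and 424 normalized counts in WT26 against 382 and 382 in *Mettl14* KO, and 223 and 231 in RBC against 403 and 454 in *Mettl3* KO. The Polycomb and H3K9 methylation lists had medians between -0.20 and 0.10 in the knockouts, and *Kdm3a*, a demethylase of H3K9, fell in *Mettl14* KO (-1.27 ± 0.051) with -0.0075 ± 0.050 in *Mettl3* KO.

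**Figure D4:**
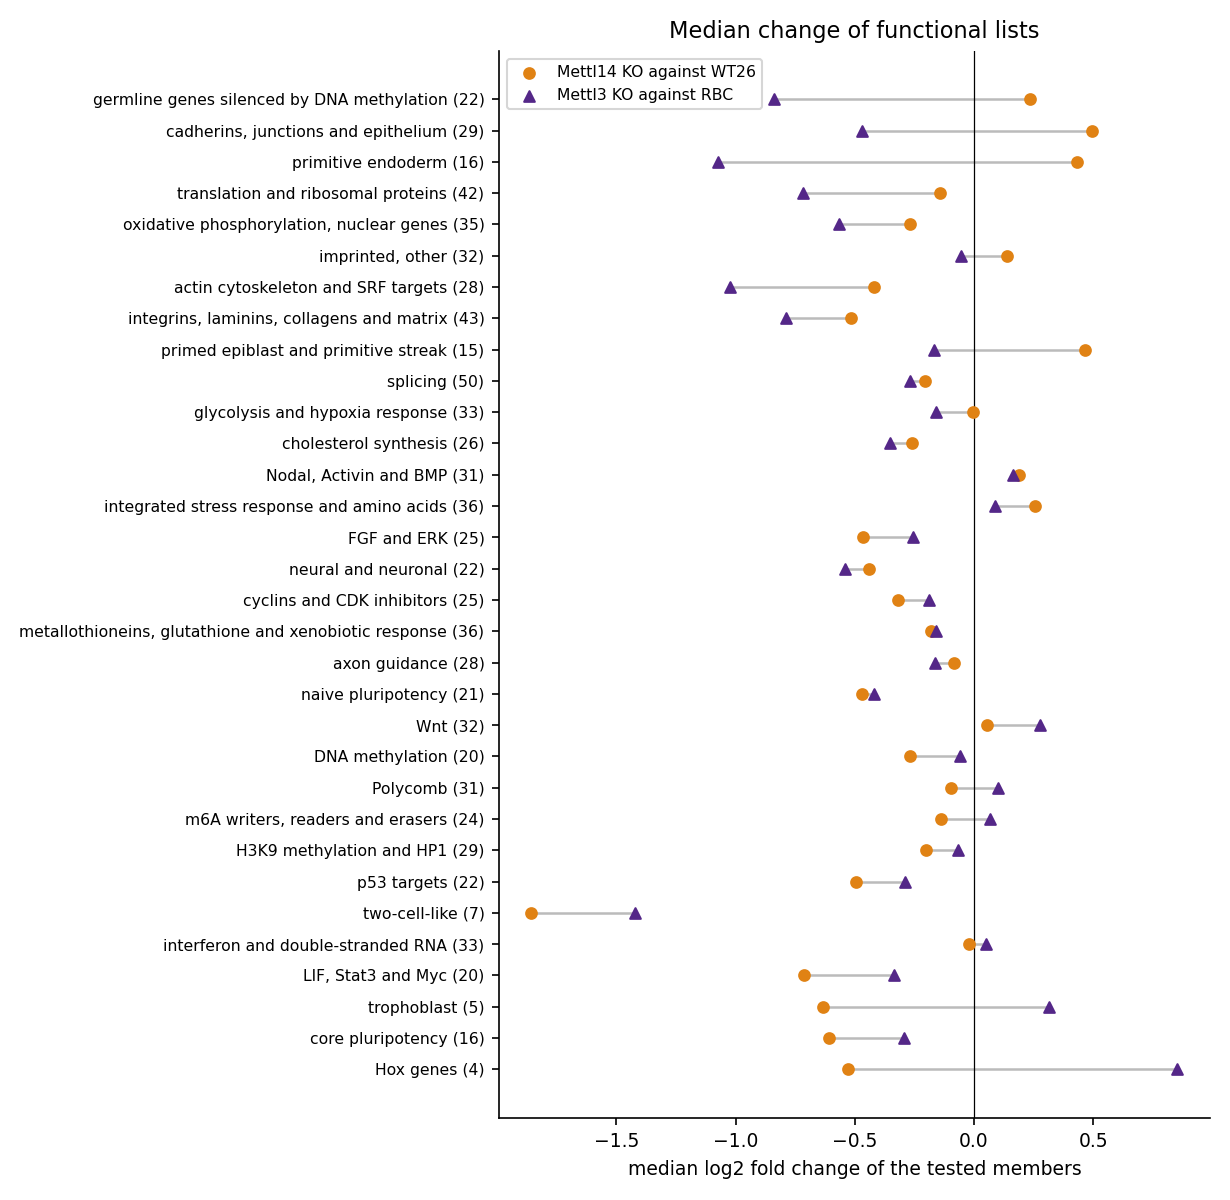
Median log2 fold change of each gene list in *Mettl14* KO and in *Mettl3* KO, on one axis, with the Dlk1-Dio3 list left out because its *Mettl3* KO median of -7.17 would be off the scale. The 2-cell-like, actin and matrix lists lie below 0 in both knockouts, and the primitive endoderm, germline and epithelial lists lie on different sides of 0.

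The MeRIP-seq input libraries measured RNA of the same 4 lines in separate libraries and gave a second reading. They were fitted with the immunoprecipitates, and the spread, wider than in RNA-seq, was shared by all 16 MeRIP-seq libraries. Over 16062 autosomal genes tested in both tables, the input comparisons called a difference for 24 genes (0.149%), and in *Mettl14* KO called 75 (0.467%), in *Mettl3* KO 149 (0.928%). With the 8 inputs fitted alone, 391, 712 and 861 were called over all autosomal genes of the MeRIP-seq table. The direction in the inputs was the same for 2020 of the 2168 genes whose difference was called from RNA-seq (93.2%), against 12411 of all 16062. The genes up in both had input medians of 0.99 and 1.09, those down in both -1.28 and -1.28, those up in *Mettl14* KO and down in *Mettl3* KO 1.255 and -1.14, and those with the reverse order -1.29 and 1.16. All 4 classes thus kept their directions in the inputs, at smaller size.

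The m6A level of these genes in the parental lines was read as the log2 ratio of immunoprecipitated to input RNA, which no RNA-seq library enters. The median over all genes was 0.18 in WT26 and 0.17 in RBC. It was 0.59 and 0.49 for the genes that fell in both and 0.56 and 0.62 for those that fell in *Mettl14* KO and rose in *Mettl3* KO. It was 0.25 and 0.25 for those that rose in both and 0.13 and 0.082 for those that rose in *Mettl14* KO and fell in *Mettl3* KO. The first 2 classes stayed above the median of all genes with each MeRIP-seq library of WT26 and RBC left out in turn, by at least 0.244 and 0.197, and the other 2 lay on either side of it. Enrichment of a gene was called for 2781 genes in WT26 (17.3%) and 2601 in RBC (16.2%), and for 76 and 59 of 335 genes down in both (22.7% and 17.6%). Of the genes down in *Mettl14* KO and up in *Mettl3* KO 8.57% and 14.3% were called, below the shares of all genes although their medians were above. Among protein-coding genes 20% and 14.8% of those down in both were called, where 19.2% and 17.97% of all were. These counts rested on single libraries, since over all autosomal genes of that table the 3126 calls of m6A IP over input in WT26 became 21 without the second WT26 immunoprecipitate and the 2895 calls of m6A IP over input in RBC became 1 without the second RBC input. *D1Pas1*, with 2.27 and 2.15, and *Cubn*, with -2.23 and -2.06, mark the ends of the range among the genes named above.

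The differences were not spread evenly over chromosomes. Over genes whose mean level reached 50 normalized counts, the median fold change in *Mettl14* KO was -0.31 on chromosome 3, -0.35 on chromosome 4 and -0.21 on chromosome 18, and in *Mettl3* KO it was -0.30 on chromosome 8, 0.23 on chromosome 18 and 0.28 on chromosome 19. The inputs gave like medians, -0.28, -0.32 and -0.11 for the first 3 and -0.29, 0.19 and 0.25 for the others. On chromosome 18 the knockouts moved apart, with a median difference of -0.45, and 6 of the 36 genes down in *Mettl14* KO and up in *Mettl3* KO lie there. That chromosome held 408 of the 16317 genes tested. On chromosome 11 the medians were positive in both, 0.15 and 0.20, and the chromosome held 40 of the genes that rose in both, 3.01% of its genes tested against 1.57% of all. Chromosomes 6 and 19 had like shares, 3.02% and 2.92%, with medians of 0.026 and 0.087 and of -0.016 and 0.28. The largest share of difference calls was on chromosome 12, 21.01% against 13.6% of all genes, 115 of them higher and 10 lower. The Dlk1-Dio3 cluster lies on this chromosome. The microRNA genes *Mir299a*, *Mir323*, *Mir432* and *Mir758*, on this chromosome too, are not given as genes apart from the cluster. They fell in both knockouts, by -1.95, -1.23, -1.38 and -1.81 in *Mettl14* KO and by -7.16, -7.78, -7.72 and -8.19 in *Mettl3* KO. Their differences were 5.21, 6.55, 6.34 and 6.38. The part of the cluster in this share was not tested. Chromosomes 1 and 14 stood out between the parents, with medians of 0.45 and 0.39 for RBC against WT26. The fold change of a gene includes any shift of its whole chromosome. Copy number was not measured, and its part in these shifts and in the calls on these chromosomes was not tested.

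**Figure D5:**
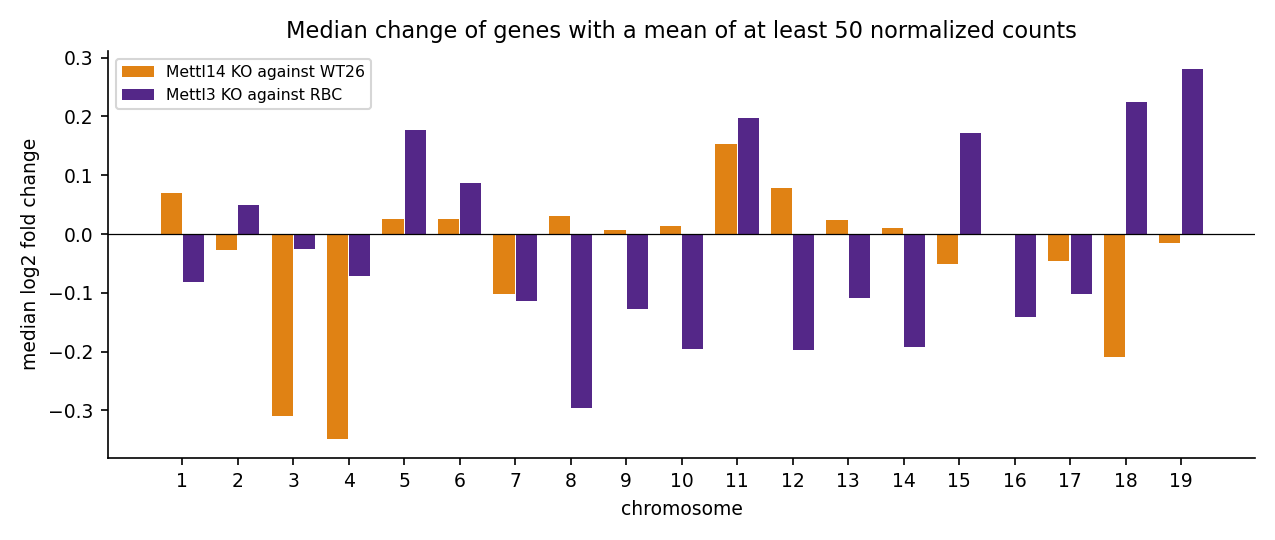
Median log2 fold change per autosome in *Mettl14* KO against WT26 and in *Mettl3* KO against RBC, for genes whose mean level reached 50 normalized counts. Chromosomes 3 and 4 are lowest in *Mettl14* KO (-0.31 and -0.35), chromosome 8 is lowest in *Mettl3* KO (-0.30), and chromosome 18 is below 0 in one and above 0 in the other.

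With the libraries scaled on each chromosome separately, an alternative chosen after the chromosome medians were seen, 2012 differences were called, 572 genes changed alike and 136 oppositely. Of the main calls, 82.03% of the genes up in both, 85.1% of those down in both, 81.5% of those up in *Mettl14* KO and down in *Mettl3* KO and 66.7% of those with the reverse order were kept. The rises of *Mcc*, *Crmp1* and *Tmem173* in *Mettl3* KO came to 0.82, 0.80 and 0.88 and were no longer called. *Lefty1*, *Plaur*, *Pkhd1*, *Asz1* and *Grin1* kept their calls.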

How the data were processed

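The data were 8 RNA-seq and 16 MeRIP-seq libraries from mouse ES cells of 4 lines, the parents WT26 and RBC with a knockout of each. The authors deposited raw read counts per gene in each table, not normalized, and the submitters' processing notes name FastQC, cutadapt 1.8.1, STAR 2.6.0c, DESeq2 1.26.0 and GRCm38. The counting tool and strand setting of the RNA-seq table are not given in the sources used here. The MeRIP-seq table came from TEtranscripts by the study's methods, with 3 immunoprecipitations pooled per replicate. Multimapping can share reads among near-identical copies.

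Samples were grouped by the labels. Genes passing filterByExpr were fitted with edgeR 4.0.16 (glmQLFit and glmQLFTest, DESeq2 size factors, R 4.3.3), all RNA-seq libraries in one fit and all MeRIP-seq libraries in another, and p-values were adjusted by Benjamini-Hochberg over all genes tested. The difference contrast was (*Mettl14* KO - WT26) - (*Mettl3* KO - RBC), and calls needed a log2 fold change beyond 1 either way with the adjusted p at 0.05 or less. Of 17021 genes tested, 16317 were autosomal and are reported, and 589 on X, 16 on Y, 19 mitochondrial, 74 without a position and 6 elsewhere are not. Normalized counts are counts over the size factors. Symbols and positions came from the annotation of GRCm38, which gave a symbol to 47310 of 47937 IDs.

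Genes called in both knockouts were named where the mean was at least 50 normalized counts, replicates of knockout and parent did not overlap, the biotype was coding or long noncoding and the symbol was not a predicted-gene name. These were the 8 with the largest smaller fold change per shared direction and the 10 with the largest difference per opposite direction. Also named were the 4 per direction called in 1 knockout with a fold change under 0.25 in the other, where overlap of replicates was allowed. Genes of 33 lists were also eligible. Members and lists were chosen with earlier results of these data known. Lists are described by counts and medians, without a set test, and 95% counting intervals cover counting error only. Alternatives were DESeq2 1.42.0, TMM, total-count scaling, other filters, a replicate block, fewer libraries, autosomal genes alone and size factors per chromosome, the last chosen after the data were seen. The fit was tested on simulated data. The replicate numbers do not pair the libraries by any label. Promoter sequences are from RefSeq (GRCm38.p6), matched by symbol for 10806 genes tested. Some genes are not reported here.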

Additional observations from a re-analysis of the deposited data

Results flagged for a closer look

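Each result here was picked out because the change in *Mettl14* KO differed from the change in *Mettl3* KO by the test of the difference itself, an interaction term in edgeR's fit across all genes. The summary result was 1258 autosomal genes with a higher and 957 with a lower change in *Mettl14* KO. All values that follow are differences of log2 fold changes, *Mettl14* KO minus *Mettl3* KO, and the genes named for size had replicates of knockout and parent that did not overlap.

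Of the genes named for a rise in *Mettl14* KO and a fall in *Mettl3* KO, the difference was 5.91 for *Asz1*, 5.12 for *Mapk10*, 4.63 for *Ccdc172*, 4.49 for *Creb5* and 4.33 for *Tktl2*. It was 4.12 for *Psd4*, 3.96 for *Txlnb*, 3.74 for *Slc5a4b*, 3.71 for *Zim2* and 3.56 for *Cubn*. Of the listed genes with the same order it was 4.29 for *Srgn*, 3.46 for *Tuba3b*, 3.04 for *Cldn7* and 3.01 for *Sox7*. The opposite calls of *Tuba3b* and *Cldn7* depended on single libraries. The rise of *Tuba3b* in *Mettl14* KO (1.31) and the fall of *Cldn7* in *Mettl3* KO (-1.21) were not called without *Mettl14* KO replicate 1 (adjusted p = 0.202), *Mettl14* KO replicate 2 (adjusted p = 0.0703), RBC replicate 1 (adjusted p = 0.0588), RBC replicate 2 (adjusted p = 0.0556), WT26 replicate 1 (adjusted p = 0.0569) or WT26 replicate 2 (adjusted p = 0.232) for *Tuba3b* and *Mettl3* KO replicate 1 (adjusted p = 0.273) or RBC replicate 2 (adjusted p = 0.423) for *Cldn7*. *Tuba3b* and *Tuba3a* are close copies and may share reads.

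Of the genes named for a fall in *Mettl14* KO and a rise in *Mettl3* KO, the difference was -6.22 for *Grin1*, -6.07 for *Fat2*, -4.04 for *Smyd1*, -3.71 for *St8sia1* and -3.27 for *Mcc*. It was -3.11 for *Tmem173*, -3.03 for *Syndig1*, -2.89 for *Crmp1*, -2.78 for *Cyyr1* and -2.66 for *Ccdc9b*. Of the listed genes it was -3.71 for *Oas1a*, -3.54 for *Sema6a* and -3.12 for *Wnt8a*. *Oas1a*, a sensor of double-stranded RNA, had 64.2 and 54.8 normalized counts in WT26 and 12.02 and 6.82 in its knockout, beside 21.8 and 15.8 in RBC and 38.3 and 39.3 in the *Mettl3* KO libraries, and its rise in *Mettl3* KO was 0.82 and not called without RBC replicate 2. *Wnt8a*, a Wnt ligand of the primitive streak, had 12.7 and 12.9 normalized counts in the WT26 libraries but 3.005 and 5.85 in those of *Mettl14* KO, and 9.20 and 14.8 in RBC but 39.1 and 36.3 in those of *Mettl3* KO, and its fall in *Mettl14* KO was not called without *Mettl14* KO replicate 1 (adjusted p = 0.147), WT26 replicate 1 (adjusted p = 0.0656) or WT26 replicate 2 (adjusted p = 0.0592).

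Where a gene was called in *Mettl14* KO alone, the difference was 2.52 for *Pde4c*, 2.48 for *Emid1*, 2.46 for *Cgn* and 2.44 for *Mcmdc2* among those that rose and -3.22 for *Dpysl3*, -2.25 for *Mir142hg*, -2.20 for *Pnpla3* and -2.13 for *Accsl* among those that fell. Where it was called in *Mettl3* KO alone, the difference was -2.47 for *Sall3*, -2.40 for *Ppp2r2c*, -2.10 for *Gsap* and -2.00 for *Ttll6* among those that rose and 3.05 for *Sohlh2*, 2.75 for *Slc1a1*, 2.46 for *Tie1* and 2.42 for *Neb* among those that fell.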

How the results depend on the processing

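No called value of a named gene changed sign under the alternatives run, but total-count scaling turned which direction held more calls for the difference (991 higher and 1441 lower), *Mettl3* KO against RBC (1355 and 899), RBC against WT26 (603 and 917) and the genes changed alike (307 up and 289 down). Of the values of single named genes under the alternatives, 8798 kept their direction and their side of the threshold and 516 were no longer called. With each RNA-seq library left out in turn the differences called ranged from 2008 to 2216 (Difference between the knockouts, 2215 in full), the calls in *Mettl14* KO against WT26 from 2087 to 2412 (of 2298), in *Mettl3* KO against RBC from 1939 to 2239 (of 2168), the genes changed alike in both knockouts from 527 to 578 and the genes changed in opposite directions from 129 to 148. A line reduced to 1 library was assumed to vary like the others. Requiring at least 10 counts in every library left fewer genes to test, and the counts became 1446 differences, 1237 in *Mettl14* KO against WT26, 1173 in *Mettl3* KO against RBC, 677 in RBC against WT26, 1125 in *Mettl14* KO against *Mettl3* KO, 314 alike and 51 opposite. DESeq2's Wald test gave 102 genes changed in opposite directions, and the cause was not tested.

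The labels do not say that a replicate number marks a shared batch or day. Deviations of same-numbered replicates correlated at -0.077 for WT26 with *Mettl14* KO, 0.47 for RBC with *Mettl3* KO, 0.23 for *Mettl14* KO with RBC, 0.062 for *Mettl14* KO with *Mettl3* KO, -0.035 for WT26 with *Mettl3* KO and -0.18 for WT26 with RBC. Not all of these were positive, and the libraries were treated as unpaired, although the libraries of RBC and *Mettl3* KO deviated together. With the replicate block the counts were 2206 differences, 2289 and 2142 calls in the knockouts, 587 alike and 151 opposite.

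The input libraries were the least stable. Their calls of a difference, of *Mettl14* KO against WT26 and of *Mettl3* KO against RBC were 30, 80 and 168 over all autosomal genes of the MeRIP-seq table. They were 128, 335 and 415 with DESeq2, 6, 45 and 85 with at least 10 counts in every library, 234, 486 and 578 with no filter, 391, 712 and 861 with the 8 inputs fitted alone and 69, 322 and 410 with the replicate block, and the cause was not tested. Leaving out 1 library moved them to 7 to 39, 0 to 138 and 13 to 235. The lowest count for *Mettl14* KO against WT26 came from edgeR without the first input of *Mettl14* KO or of WT26, where 998 and 1033 genes had an unadjusted p under 0.05 and passed the fold threshold, and DESeq2 was not run there. Enrichment of m6A IP over input in WT26 ranged from 21 to 4131 genes and of m6A IP over input in RBC from 1 to 4020.

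The sign of a list's median did change with the scaling. Under total-count scaling this held for the median difference of 11 lists (primed epiblast and primitive streak, neural and neuronal, integrins and laminins and collagens and matrix, FGF and ERK, *Nodal* and Activin and BMP, cyclins and CDK inhibitors, glycolysis and hypoxia response, cholesterol synthesis, integrated stress response and amino acids, splicing, metallothioneins and glutathione and xenobiotic response) and for the median in *Mettl3* KO of 3 (other imprinted, DNA methylation, H3K9 methylation and HP1). With size factors per chromosome it held for the median difference of 7 (primed epiblast and primitive streak, neural and neuronal, axon guidance, *Nodal* and Activin and BMP, Wnt, cyclins and CDK inhibitors, metallothioneins and glutathione and xenobiotic response), for *Mettl3* KO in m6A writers and readers and erasers, Polycomb and for *Mettl14* KO in glycolysis and hypoxia response. Depth limits genes with few counts, where single reads set the fold change.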

Other observations

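Of 25 cyclins and CDK inhibitors tested, the difference was called for 3, a share of 12% against 13.6% of all genes. D-type cyclins and CDK6 drive entry into the cell cycle. *Ccnd2*, cyclin D2, had 8.14 and 10.7 normalized counts in WT26 against 4.01 and 7.79 in *Mettl14* KO, and 26.4 and 29.6 in RBC against 378 and 419 in *Mettl3* KO. It rose in *Mettl3* KO (3.82 ± 0.16) and had -0.64 ± 0.46 in *Mettl14* KO, a called difference of -4.46 ± 0.52 (adjusted p = 2.27e-06). *Ccnd3*, cyclin D3, had 1207 and 1311 normalized counts in WT26 and 961 and 982 in its knockout, beside 1467 and 1495 in RBC and 574 and 586 in the *Mettl3* KO libraries, and fell in *Mettl3* KO (-1.35 ± 0.059) beside -0.37 ± 0.057 in *Mettl14* KO, a difference of 0.98 ± 0.082 that was under the fold threshold. *Cdk6* had 1983 and 2021 normalized counts in the WT26 libraries but 582 and 639 in those of *Mettl14* KO, and 1253 and 1199.8 in RBC but 1121 and 1058 in those of *Mettl3* KO, and fell in *Mettl14* KO (-1.71 ± 0.059) beside -0.17 ± 0.058 in *Mettl3* KO, a called difference of -1.54 ± 0.083 (adjusted p = 1.68e-10). *Lef1*, a transcription factor of Wnt signalling, was near the floor outside *Mettl3* KO, with 4.52 and 3.22 normalized counts in WT26 against 3.005 and 0.974 in *Mettl14* KO, and 4.60 and 1.97 in RBC against 38.3 and 37.3 in *Mettl3* KO, and rose there (3.52 ± 0.45). The Wnt inhibitor *Notum* had 786 and 818 normalized counts in WT26 and 348 and 402 in its knockout, beside 922 and 801 in RBC and 1264 and 1307 in the *Mettl3* KO libraries, a called difference of -1.67 ± 0.11 (adjusted p = 2.47e-09).

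Of 22 neural and neuronal genes tested, 1 rose and 3 fell in both knockouts and the difference was called for 11, 4 higher and 7 lower in *Mettl14* KO. *Neurod1*, a transcription factor of neurons, had 115 and 122 normalized counts in the WT26 libraries but 17.03 and 16.6 in those of *Mettl14* KO, and 86.2 and 76.9 in RBC but 32.2 and 39.3 in those of *Mettl3* KO, and fell in both (-2.81 ± 0.22 and -1.19 ± 0.20). *Gfra2*, a receptor of neurturin, had 103 and 122 normalized counts in WT26 against 1.002 and 5.85 in *Mettl14* KO, and 64.4 and 77.9 in RBC against 26.1 and 24.2 in *Mettl3* KO, and fell in both (-4.97 ± 0.35 and -1.50 ± 0.25), further in *Mettl14* KO (difference -3.47 ± 0.51). *Epha4*, an ephrin receptor, had 3917 and 3735 normalized counts in WT26 and 1823 and 1829.5 in its knockout, beside 6088 and 6445 in RBC and 1183 and 1159 in the *Mettl3* KO libraries, and fell further in *Mettl3* KO (-2.42 ± 0.051 beside -1.07 ± 0.049). *Pou3f1*, a POU factor of the epiblast and neural lineage, had 34.4 and 41.9 normalized counts in the WT26 libraries but 5.01 and 3.90 in those of *Mettl14* KO, and 25.3 and 35.5 in RBC but 40.002 and 37.3 in those of *Mettl3* KO, and fell in *Mettl14* KO (-3.06 ± 0.39).

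Of 32 imprinted genes tested outside the Dlk1-Dio3 cluster, the difference was higher for 5 and lower for 1. *Slc38a4*, an amino acid transporter, had 3725 and 3778 normalized counts in WT26 against 5165 and 5221 in *Mettl14* KO, and 2942 and 3179 in RBC against 1091 and 1185 in *Mettl3* KO, and fell in *Mettl3* KO (-1.43 ± 0.055) beside 0.47 ± 0.051 in *Mettl14* KO, a called difference of 1.90 ± 0.075 (adjusted p = 3.76e-12). *Plagl1*, a zinc finger factor, had 83.2 and 57.98 normalized counts in WT26 and 109 and 122 in its knockout, beside 138 and 123 in RBC and 38.3 and 36.3 in the *Mettl3* KO libraries, and fell in *Mettl3* KO (-1.80 ± 0.19) beside 0.69 ± 0.18, a called difference of 2.49 ± 0.26 (adjusted p = 6.57e-07). *Peg3* had 3794 and 3908 normalized counts in the WT26 libraries but 2081 and 2016 in those of *Mettl14* KO, and 843 and 799.5 in RBC but 269.6 and 280.0 in those of *Mettl3* KO, and fell in *Mettl3* KO (-1.58 ± 0.060) beside -0.91 ± 0.046 in *Mettl14* KO, a difference of 0.67 ± 0.076 under the fold threshold. Of glutathione enzymes, *Gpx2* had 156 and 177 normalized counts in WT26 against 41.1 and 25.3 in *Mettl14* KO, and 14.9 and 21.7 in RBC against 5.22 and 5.04 in *Mettl3* KO, and fell in both (-2.32 ± 0.21 and -1.83 ± 0.46), while *Gstm5* had 16.3 and 20.4 normalized counts in WT26 and 77.1 and 106 in its knockout, beside 79.3 and 80.8 in RBC and 124 and 138 in the *Mettl3* KO libraries, and rose in *Mettl14* KO (2.33 ± 0.24). *Slc7a11*, a cystine transporter, rose in *Mettl3* KO (1.66 ± 0.14) and had 0.41 ± 0.12 in *Mettl14* KO, with a called difference of -1.256 ± 0.19 (adjusted p = 3.39e-05). *Cth*, which makes cysteine, fell in *Mettl14* KO (-1.58 ± 0.073) and had -0.15 ± 0.073 in *Mettl3* KO, with a called difference of -1.43 ± 0.10 (adjusted p = 7.49e-09).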
